A study of Rattus norvegicus with 20 samples.

Results

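NMDA receptors are glutamate-gated cation channels of excitatory synapses, and the 6 genes described here encode their subunits. They are Grin1, Grin2a, Grin2b, Grin2c, Grin2d and Grin3a, taken by symbol from the authors' deposited tables as 6 of 16823 genes, with 1 RefSeq accession kept for each gene, that with the highest mean count. Poly(A) RNA was counted in 20 libraries from prefrontal cortex and nucleus accumbens, 5 for each region and diet, of male rats of the inbred strain Fischer344/Jcl. The standard groups ate the AIN-93G diet and the low-iron groups a low-iron diet from 21 to 39 days of age, and the tissue of all 4 groups was taken at 13 weeks. Whether each library is a separate animal is not stated in the labels, and the p-values rest on the spread among libraries, part of which may be technical.

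An NMDA receptor is a tetramer in which GluN1, encoded by Grin1, is obligatory and binds glycine or D-serine. The GluN2 subunits, encoded by Grin2a to Grin2d, bind glutamate and set channel kinetics, magnesium block and the signalling proteins that are recruited. The forebrain is known for GluN2B early in life and for a growing share of GluN2A later, for GluN2D in interneurons and pallidal neurons, and for GluN2C in a smaller set of cells that includes astrocytes. The GluN3 subunits bind glycine and lower calcium entry.

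The libraries held 4.34 to 12.97 M assigned reads, with 5.48 to 8.86 M in the standard accumbens libraries and 4.34 to 5.93 M in the low-iron ones. The region labels were checked against markers. The summed level of 12 striatal projection neuron genes was 4383 to 7730 CPM (read counts relative to library size, scaled by TMM over all 20 libraries) in accumbens and 471 to 510 CPM in cortex. For 10 genes of cortical glutamatergic neurons the sums were 1880 to 3550 CPM in cortex and 72.5 to 516 CPM in accumbens. The accumbens value of 516 CPM belonged to standard replicate 4, and no other accumbens library exceeded 122 CPM. Standard cortex replicate 4 also stood apart, with a sum of 6 meninges and fibroblast genes of 1103 CPM against 107 to 208 CPM in the other 4 standard cortex libraries. In bulk tissue, fewer cells of a type and less RNA per cell cannot be told apart.

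Grin1 and Grin3a could not be described from these counts. All 8 accessions of Grin1 were listed at 0 in all 20 libraries. Of the 2 accessions of Grin3a, 1 was listed at 0 throughout and the other held 7 reads in all, at most 3 in a library. A count of 0 allows up to 3 reads, or 0.231 to 0.691 CPM before TMM scaling depending on the library, for counting error only. The library files set apart ambiguous reads, which made up 3.61 to 4.23% of reads. Among symbols with 1 accession, 12% had 0 reads in every library, against 26.9% of those with 2 accessions and 33.5% of those with 3 or more. For the 29 symbols with 8 or more accessions, as Grin1 has, the share was 24.1%. Genes known to be abundant in striatum or astrocytes were also listed at 0, among them Adora2a (2 accessions), Tac1 (4) and Aqp4 (5), and so was Col1a2 with 1 accession. The zeros are therefore not read as absence, and whether ambiguous reads account for them was not tested.

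The other 4 members, Grin2a, Grin2b, Grin2c and Grin2d, have 1 accession each and were counted in every library. Grin2a rested on 18 to 138 reads per library, Grin2b on 315 to 1128, Grin2c on 1018 to 3032 and Grin2d on 113 to 402. No transcript lengths were used here, so levels are compared between groups for a gene, and not between genes.

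Grin2a, on chromosome 10, encodes GluN2A, the subunit of fast-deactivating receptors of mature synapses. The 5 standard cortex libraries stood at 7.57, 11.1, 7.60, 7.82 and 11.5 CPM, and the 5 low-iron cortex libraries at 13.4, 10.8, 8.73, 10.4 and 10.4 CPM. The standard accumbens libraries stood at 5.52, 6.5, 4.83, 5.96 and 3.90 CPM, and the low-iron ones at 5.83, 6.15, 3.90, 6.63 and 6.59 CPM. Every accumbens library lay below every cortex library, while the diets overlapped in both regions. The SD over the 5 libraries was 15.6 to 21.8% of the mean, where counting error alone would give 10.3 to 17.8%.

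Grin2b, on chromosome 4, encodes GluN2B, the subunit of slower receptors that binds CaMKII tightly. Standard cortex libraries stood at 86.5, 90.4, 92.1, 78.2 and 98.6 CPM, and low-iron cortex libraries at 98.3, 90.2, 99.3, 84.1 and 93.0 CPM. Standard accumbens libraries stood at 61.4, 70.8, 47.3, 62.6 and 58.2 CPM, and low-iron accumbens libraries at 70.9, 69.4, 81.3, 55.0 and 71.6 CPM. Under each diet the regions did not overlap, with accumbens lower. Low-iron replicate 3 of the accumbens, at 81.3 CPM, was above standard cortex replicate 4.

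Grin2c, on chromosome 10, encodes GluN2C, whose receptors are less sensitive to magnesium. Standard cortex libraries stood at 248, 243, 227, 200 and 236 CPM, and low-iron cortex libraries at 218, 258, 263, 215 and 202 CPM. Standard accumbens libraries stood at 200, 249, 181, 205 and 171 CPM, and low-iron accumbens libraries at 200, 216, 251, 178 and 225 CPM. All 4 groups overlapped. The lowest levels belonged to standard replicates 5 and 3 and low-iron replicate 4 of the accumbens.

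Grin2d, on chromosome 1, encodes GluN2D, whose receptors deactivate very slowly. Its span overlaps that of Grwd1 and of a long noncoding RNA in GRCr8, and the counting did not use strand. Whether exons overlap, and whether such reads were set apart as ambiguous or counted for a gene, was not tested. The same limit holds for Grin2a and Grin2b, each of which overlaps 1 long noncoding RNA, while Grin2c overlaps no other gene. Cortex libraries were close together, at 27.5, 32.2, 33.5, 34.6 and 31.9 CPM in the standard group and at 33.9, 38.9, 32.5, 28.9 and 27.2 CPM in the low-iron group. Accumbens libraries were spread widely, at 29.9, 18.3, 55.1, 29.8 and 54.9 CPM in the standard group and at 28.6, 25.1, 24.5, 51.3 and 26.8 CPM in the low-iron group. The SD was 44.1% and 36.2% of the mean in the accumbens groups, against 8.49% and 14.1% in the cortex groups, and counting error alone would give 5.6 to 7.69%. The 3 accumbens libraries above 50 CPM were standard replicates 3 and 5 and low-iron replicate 4, the same libraries that were lowest for Grin2c.

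**Figure D1:**
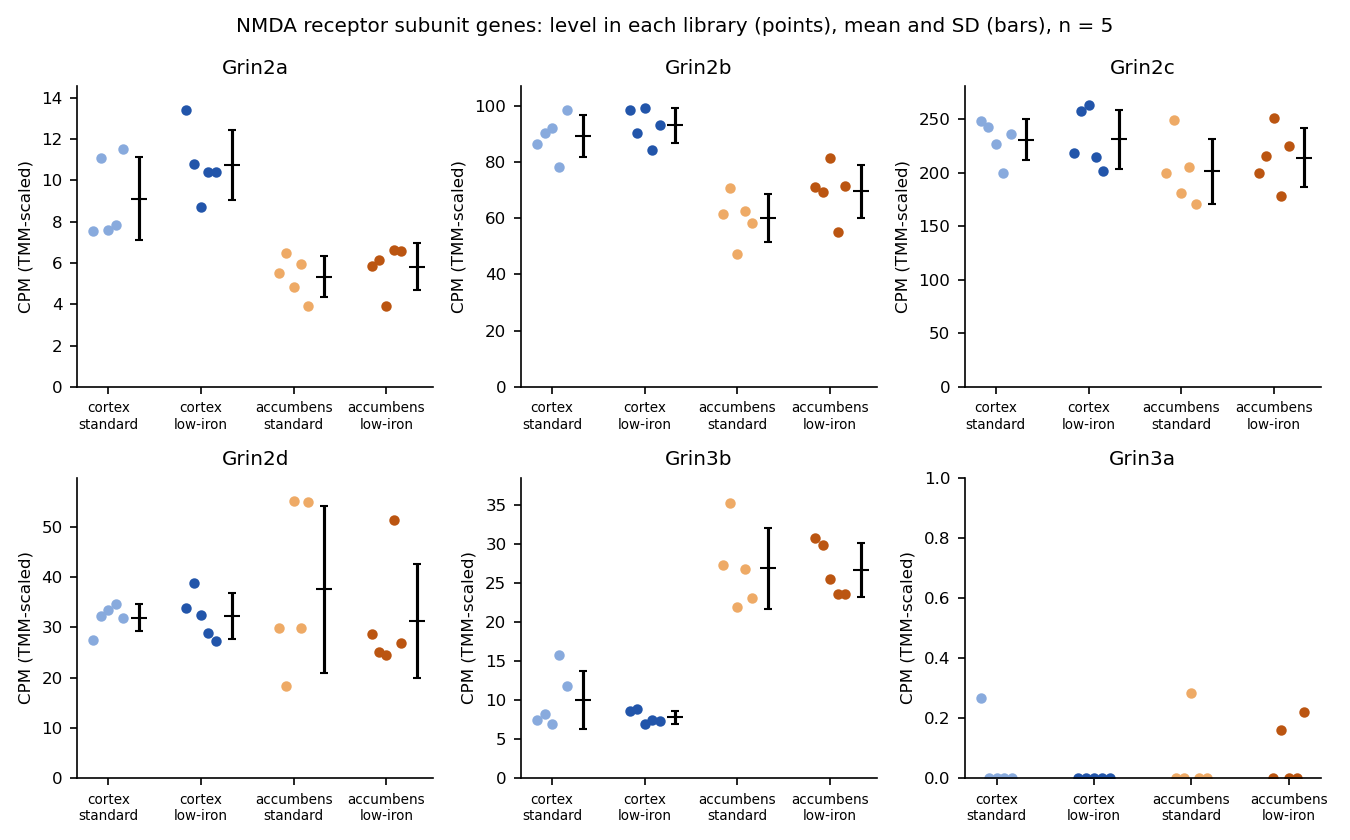
Level of each subunit gene (CPM, linear axis from 0) in each of the 5 libraries of each region and diet, with the mean and SD beside the points except for Grin3a. Grin2a and Grin2b lie lower in the accumbens, Grin3b (a gene outside the 6) lies higher there, Grin2d has 3 accumbens libraries above 50 CPM, and Grin3a stays under 0.3 CPM.

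The first question was whether the subunit genes differed with diet. In the accumbens none of the 4 tested passed with edgeR's quasi-likelihood test over 11202 accessions, of which 0% were called, and none had an unadjusted p under 0.05, beside 4.05% of accessions. DESeq2 called none of the 4 either, and for no member were the diets free of overlap, beside 0.946% of accessions. Grin2b had the lowest p. Its low-iron libraries averaged 69.6 ± 9.46 CPM and its standard libraries 60 ± 8.51 CPM (SD, n = 5), for a log2 fold change of 0.21 (SE 0.11, 95% interval -0.03 to 0.45) with adjusted p = 0.972 in edgeR. Grin2a was at 0.13 (interval -0.25 to 0.51) and Grin2c at 0.09 (interval -0.15 to 0.32). Grin2d was at -0.25 with an interval of -1.05 to 0.55, the widest of the 4. Single libraries moved these values by over 1.5 times: Grin2d ran from -0.51 without low-iron replicate 4 to -0.07 without standard replicate 3, and Grin2b was at 0.13 without standard replicate 3. With 1 library left out, Grin2a ran from 0.04 to 0.23 and Grin2c from 0.02 to 0.18. A difference of 2-fold thus lay outside the intervals of Grin2a, Grin2b and Grin2c, and inside that of Grin2d on the lower side.

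In the cortex none of the 4 tested passed either, with 0% of 11662 accessions called by edgeR and no member at an unadjusted p under 0.05, beside 5.99%. DESeq2 called none of the 4, and the diets overlapped for each, beside 1.26% of accessions without overlap. Grin2a averaged 10.7 ± 1.68 CPM in low-iron and 9.11 ± 1.98 CPM in standard libraries (SD, n = 5), which gave a log2 fold change of 0.22 (SE 0.15, interval -0.11 to 0.55) with adjusted p = 0.69 in edgeR. Grin2b was at 0.04 (interval -0.10 to 0.18), Grin2c at -0.01 (interval -0.19 to 0.16) and Grin2d at -0.0033 (interval -0.21 to 0.21). The median of the 4 was 0.02, against -0.000616 over all accessions tested. In the accumbens the median of the 4 was 0.11, against 0.00182.

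An interaction term over all 20 libraries asked whether the diet difference was unequal in the 2 regions. None of the 4 members passed in edgeR or DESeq2, with 0% of 11788 accessions called by edgeR, and none had an unadjusted p under 0.05, beside 5.36%. The accumbens minus cortex differences of log2 fold change were -0.11 for Grin2a (interval -0.61 to 0.39), 0.15 for Grin2b (-0.13 to 0.43), 0.08 for Grin2c (-0.21 to 0.38) and -0.27 for Grin2d (-1.02 to 0.49). The authors' deposited table of the accumbens lists Grin2b at 0.21 and Grin2d at -0.26, and their table of the cortex lists Grin2a at 0.23, with no adjusted p under 0.8 for these.

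The regions were compared next, within each diet. Grin2a and Grin2b fell from cortex to accumbens under both diets, while Grin2c and Grin2d did not pass. These 2 of 4 tested members stand beside 47.0% of 11612 accessions called under the standard diet (24.0% lower in accumbens) and 59.1% of 11220 under the low-iron diet (29.0% lower), so the count is near the background. No overlap between regions was found for the same 2 members under each diet, beside 33.6% of accessions with the standard diet (17.1% lower) and 44.8% with the low-iron diet (23.8% lower). Striatal and cortical neuron markers differ between these regions as given above, and their part in the subunit differences was not tested.

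For Grin2a the log2 fold change of accumbens against cortex was -0.77 (SE 0.18, adjusted p = 0.00391 in edgeR) with the standard diet, or 0.588-fold (interval 0.449 to 0.771). In the low-iron groups it was -0.86 (SE 0.15, adjusted p = 8.99e-05 in edgeR), or 0.551-fold (interval 0.441 to 0.688). All 5 accumbens libraries were lower in each case. With log2 assigned reads as a covariate the standard-diet value was -0.71 (SE 0.26) and did not pass (adjusted p = 0.0638 in edgeR). Standard accumbens libraries held 5.48 to 8.86 M assigned reads and standard cortex libraries 8.29 to 12.97 M. That fit therefore cannot fully separate depth from region.

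For Grin2b the values were smaller, at -0.57 (SE 0.10, adjusted p = 0.000421 in edgeR) or 0.674-fold (interval 0.583 to 0.780) with the standard diet. With the low-iron diet the log2 fold change was -0.40 (SE 0.08, adjusted p = 0.000354 in edgeR), or 0.757-fold (interval 0.672 to 0.852). Again all 5 accumbens libraries were below all 5 cortex libraries of the same diet. In order of mean level both genes ran from low-iron cortex to standard cortex, low-iron accumbens and standard accumbens, and the neighbours of the same region did not differ beyond their spread.

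For Grin2c the log2 fold change was -0.20 (interval -0.41 to 0.01, adjusted p = 0.111 in edgeR) with the standard diet and -0.10 (interval -0.29 to 0.10) with the low-iron diet. The standard-diet value passed without cortex replicate 4 (-0.25, adjusted p = 0.0374 in edgeR) or without accumbens replicate 2 (-0.27, adjusted p = 0.0126). For Grin2d it was 0.23 (interval -0.37 to 0.83) with the standard diet and -0.02 (interval -0.46 to 0.42) with the low-iron diet. Without accumbens low-iron replicate 4 the latter was -0.29 and passed (adjusted p = 0.0258 in edgeR).

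**Figure D2:**
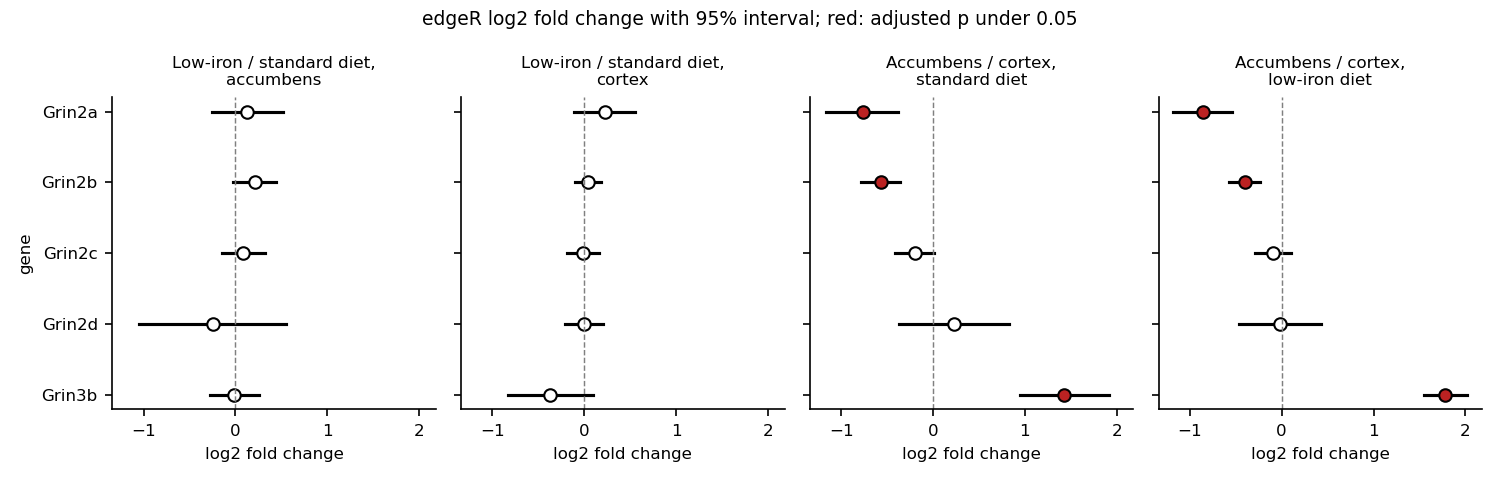
Log2 fold change from edgeR (horizontal axis) with its 95% interval for each counted subunit gene in 4 comparisons; filled red points have an adjusted p under 0.05. The diet panels hold no red point, and both region panels show Grin2a and Grin2b below 0 and Grin3b above 0.

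Grin3b, which encodes the other GluN3 subunit, is not among the 6 genes but stood in a list of pathway genes, and it had the largest region difference of the subunit genes that could be tested. Its span overlaps that of the protein-coding gene Tmem259 in GRCr8. Whether exons overlap, and how such reads were counted without strand, was not tested. It stood at 26.9 ± 5.23 CPM in standard accumbens and 10.1 ± 3.71 CPM in standard cortex (SD, n = 5). Its log2 fold change was 1.43 (SE 0.22, adjusted p = 0.00028 in edgeR). In low-iron libraries it stood at 26.7 ± 3.42 against 7.83 ± 0.867 CPM (SD, n = 5), or 1.78 (SE 0.11, adjusted p = 1.53e-10 in edgeR). The regions did not overlap under either diet, and without standard cortex replicate 4 the standard-diet value was 1.66. With diet it was at -0.01 in accumbens and -0.37 in cortex (-0.13 without standard replicate 4), and did not pass.

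Subunit ratios were taken as ratios of reads within a library, which need no scaling to library size. They depend on how much of each transcript the annotation covers, so only differences between groups are read. The ratios of Grin2a and Grin2b to Grin1, and of Grin3a to Grin1, could not be formed, since Grin1 was listed at 0. The 3 remaining ratios were compared in 4 ways each with exact two-sided permutation tests, whose smallest p with 5 libraries against 5 is 0.00794, and adjusted over these 12. None passed after adjustment. A lone test at that smallest p could not pass this adjustment, so the failure to pass does not show equal ratios.

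The ratio of Grin2a to Grin2b, the pair whose balance shifts toward GluN2A as the forebrain matures, was 0.102 ± 0.0174 in standard cortex and 0.116 ± 0.018 in low-iron cortex (SD, n = 5). In accumbens it was 0.0892 ± 0.0133 with the standard diet and 0.0863 ± 0.0260 with the low-iron diet. The 4 groups overlapped. The largest difference was between regions after the low-iron diet, at -0.46 on the log2 scale (exact permutation p = 0.0952, adjusted p = 0.324). Without accumbens low-iron replicate 3 it was -0.26.

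The ratio of Grin2c to Grin2b was higher in every standard accumbens library (3.26, 3.52, 3.83, 3.28 and 2.94) than in any standard cortex library (2.87, 2.69, 2.47, 2.55 and 2.40). This was 0.37 on the log2 scale (exact permutation p = 0.00794, the smallest possible, and adjusted p = 0.0952). After the low-iron diet the ratio was 3.08 ± 0.151 in accumbens and 2.49 ± 0.292 in cortex (SD, n = 5), a difference of 0.31 (exact permutation p = 0.0159, adjusted p = 0.0952). Between diets it was 0.12 lower on the log2 scale with low iron in accumbens, where the low-iron mean was 1.62 and the standard mean 1.74 (exact permutation p = 0.135, adjusted p = 0.324). In cortex the 2 diets overlapped, with log2 means of 1.31 and 1.37.

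The ratio of Grin2d to Grin2b was 0.318 to 0.443 in standard cortex and 0.293 to 0.431 in low-iron cortex. In accumbens it ranged from 0.259 to 1.17 with the standard diet and from 0.301 to 0.933 with the low-iron diet. Standard replicates 3 (1.17) and 5 (0.943) and low-iron replicate 4 (0.933) stood far above the other 7 accumbens libraries, the highest of which was 0.486. Neither diet nor region passed for this ratio (lowest exact permutation p = 0.127, adjusted p = 0.324).

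**Figure D3:**
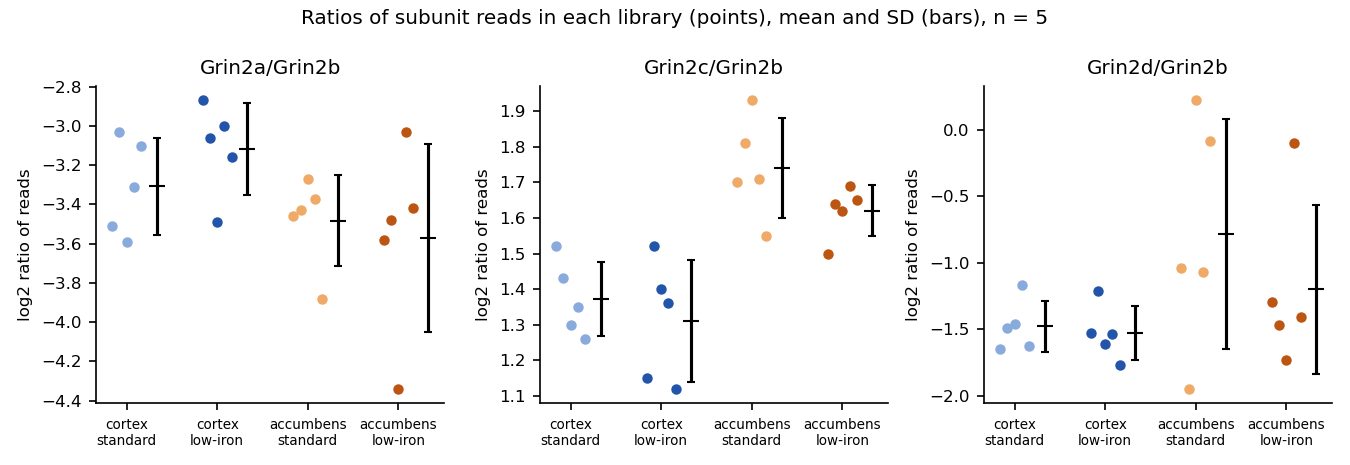
Log2 ratio of reads of Grin2a, Grin2c and Grin2d to those of Grin2b in each library, by region and diet, with mean and SD. The mean Grin2c ratio is higher in the accumbens under both diets, with overlap in the low-iron groups, and 3 accumbens libraries stand apart for the Grin2d ratio.

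Among Grin2b, Grin2c and Grin2d, correlations over libraries were further from 0 in the accumbens than in the cortex. After the mean of each region-and-diet group was subtracted from log2 CPM, Grin2b and Grin2c had a Pearson r of 0.848 (Spearman rho 0.915) over the 10 accumbens libraries and 0.445 (rho 0.394) over the 10 cortex libraries. Grin2d ran opposite to both in the accumbens, with an r of -0.874 (rho -0.855) with Grin2b and -0.92 (rho -0.903) with Grin2c. In the cortex these were 0.0545 and 0.279. Grin2a followed none of them closely in the accumbens, with r between -0.319 and 0.102. These are descriptions over libraries that share their scaling, and the difference between the regions was not tested.

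Marker levels moved with this pattern. Standard accumbens replicates 3 and 5 and low-iron replicate 4, high for Grin2d, held the 3 lowest sums of the 12 striatal projection neuron genes, at 4460, 4383 and 4795 CPM against 5716 to 7730 CPM in the other 7. Adora2a and Tac1, which define these neurons, were listed at 0 in all libraries, so the sum rests on 10 genes. Over the 10 accumbens libraries, group means removed, the r of Grin2d with this sum was -0.944 (rho -0.758). It was 0.812 for Grin2b, 0.806 for Grin2c and 0.291 for Grin2a.

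Markers of other cells of the ventral forebrain went the other way. The sum of 7 genes of basal forebrain cholinergic and septal neurons, none at 0 in accumbens, ranged from 136 to 335 CPM in standard and from 146 to 249 CPM in low-iron accumbens libraries. Its r with Grin2d was 0.766 (rho 0.733), and standard replicates 3 (335 CPM) and 5 (304 CPM) were the highest. Low-iron replicate 4, also high for Grin2d, held 249 CPM. That was below standard replicate 1 at 254 CPM, where Grin2d was at 29.9 CPM. Oligodendrocyte markers, at 4440 to 6733 CPM, had an r of 0.807 with Grin2d. A list of GABA neuron genes, at 1468 to 1749 CPM, had an r of 0.452. Gad1 and Gad2, which striatal projection neurons also express, carried most of that sum, so it does not set interneurons apart here. In the accumbens libraries high for Grin2d, Lhx6 of this list stood at 98.2, 100 and 82 CPM. The others held 37.2 to 58.6 CPM. Kcnc2 was also highest there, at 38.6, 35.1 and 28.3 CPM. For Gad1, Gad2, Pvalb, Sst, Vip and Npy those libraries were not the 3 highest, so the list did not move as a whole. The sum of cortical glutamatergic markers had an r of -0.158 with Grin2d.

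With the striatal sum as a covariate, an alternative chosen after the data were seen, the diet value of Grin2d in accumbens was 0.04 (SE 0.10) in place of -0.25 (SE 0.35). With the cholinergic and septal sum it was 0.05 (SE 0.23). Grin2b was at 0.14 (SE 0.07) and 0.13 (SE 0.08) with these covariates, and neither gene passed. The striatal sum had an r of -0.944 with Grin2d over these same libraries, so the smaller SE was largely built in. Whether tissue makeup accounts for the spread of Grin2d was not tested.

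**Figure D4:**
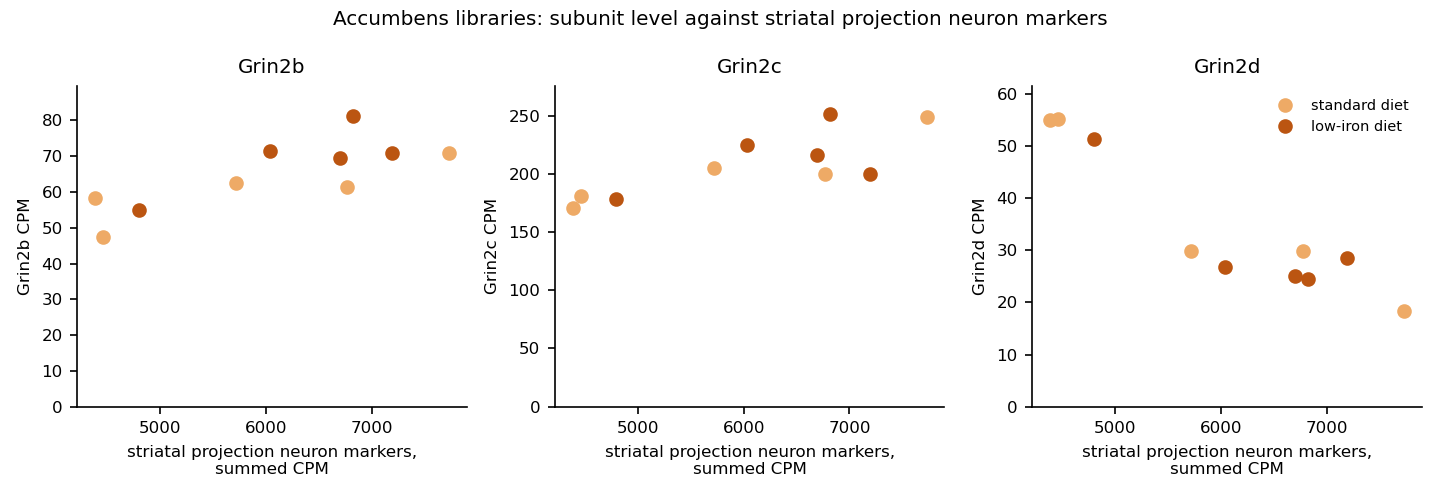
Level of Grin2b, Grin2c and Grin2d (CPM, from 0) in the 10 accumbens libraries against the summed CPM of striatal projection neuron markers, by diet. The 3 libraries with the lowest sums, 4383 to 4795 CPM, have the highest Grin2d levels, above 50 CPM, and the lowest Grin2c levels.

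Grin2c and Grin2d, whose levels ran opposite ways across the accumbens libraries, are also the 2 counted members with an entry in the RefSeq promoter table (build GRCr8); Grin2a and Grin2b had none. Their windows, from 250 bases before to 50 after the start that the table gives, are printed 5′ to 3′ with CpG dinucleotides in capitals. They lie at chr10:101005089-101005388 and chr1:105481187-105481486, both on the minus strand.
Grin2c: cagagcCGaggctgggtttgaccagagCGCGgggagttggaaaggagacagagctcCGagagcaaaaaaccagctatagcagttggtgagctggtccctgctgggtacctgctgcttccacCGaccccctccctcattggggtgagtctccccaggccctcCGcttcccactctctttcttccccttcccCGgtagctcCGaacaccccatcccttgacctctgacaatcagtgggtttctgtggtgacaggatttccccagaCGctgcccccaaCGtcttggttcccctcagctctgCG
Grin2d: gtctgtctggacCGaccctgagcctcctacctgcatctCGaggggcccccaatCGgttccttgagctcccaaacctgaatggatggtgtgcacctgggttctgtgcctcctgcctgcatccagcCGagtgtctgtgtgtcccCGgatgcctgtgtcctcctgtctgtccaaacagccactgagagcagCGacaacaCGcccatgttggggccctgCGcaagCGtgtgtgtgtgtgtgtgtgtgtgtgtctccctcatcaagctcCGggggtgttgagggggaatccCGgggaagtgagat
The windows were alike in makeup, with a GC content of 60.3% and 60.7% and 11 CpG dinucleotides each, where the medians over 33469 such windows were 51.7% and 7. Neither held the GC box GGGCGG (present in 33.1% of all windows), the cyclic AMP response element TGACGTCA (1.83%), the homeodomain core TAATTA (5.36%) or the E-box CACGTG (6.42%) on either strand. That says only that these letters are not in these 300 bases.

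The genes most like each member were taken from 8936 genes by Pearson r over the 20 libraries with group means removed. For Grin2a they were the polyadenylation factor gene Wdr33 (r 0.876, rho 0.899), the neurabin gene Ppp1r9a (r 0.834) and the postsynaptic scaffold gene Tanc2 (r 0.818). For Grin2b they were the paralemmin gene Palm (r 0.927, rho 0.805), Parp6 (r 0.899) and Agap2 (r 0.887). For Grin2c they were the LIM homeobox gene Lhx2 (r 0.962, rho 0.962), the collagen gene Col11a2 (r 0.906) and the spinophilin gene Ppp1r9b (r 0.898). For Grin2d they were Kcnc1, a potassium channel gene of fast-spiking neurons (r 0.928, rho 0.791), Iqsec3 (r 0.91) and the zinc transporter gene Slc39a6 (r 0.898).

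These likenesses differed in how far both regions carried them. Lhx2 followed Grin2c within cortex (r 0.917, 10 libraries) and within accumbens (r 0.987), and Wdr33 followed Grin2a in both (0.914 and 0.846). Kcnc1 followed Grin2d at 0.98 in accumbens and 0.586 in cortex. With any 1 library left out, the r of the 12 pairs stayed between 0.751 and 0.969. The pairs were picked for a high r over these same libraries, so high values were partly built in.

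Genes that supply, anchor and act downstream of the receptor were counted from 5 lists with 61 genes, of which 60 were found. With diet none passed with edgeR in the accumbens (0 of 56 tested, 1 at an unadjusted p under 0.05) or the cortex (0 of 57, with 3), and none in the interaction (0 of 58, with 2). Between regions 35 of 57 passed with the standard diet, 11 higher in accumbens and 24 lower, or 61.4% beside 47.0% of all accessions (23.0% higher). With the low-iron diet 39 of 57 passed, 11 higher and 28 lower, or 68.4% beside 59.1% (30.1% higher). The single lists below stand beside 24.0% of all accessions lower and 23.0% higher with the standard diet. With the low-iron diet these shares were 29.0% and 30.1%.

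The scaffold genes, which tie the receptor to the postsynaptic density, were mostly lower in accumbens, with 8 of 13 lower and 1 higher under the standard diet. Shank1 was at -1.69 on the log2 scale (SE 0.10, adjusted p = 1.35e-07 in edgeR). Dlg1, which encodes SAP97, was the 1 that rose, at 0.98 (SE 0.06, adjusted p = 1.32e-07). The list median was -0.38, and with the low-iron diet 9 of 13 were lower and 1 higher, with Shank1 at -1.72 and Dlg1 at 1.07.

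Genes of calcium and Ras signalling were lower in 7 of 8 with the standard diet, with a median of -0.62. Rasgrf2, a calcium-activated exchange factor for Ras, was at -2.33 (SE 0.19, adjusted p = 2.65e-06 in edgeR), and the calmodulin gene Calm3 at -0.86 (SE 0.09). With the low-iron diet 6 were lower and 1 higher, and Calm3 (-1.06) and Kalrn (-1.18) had the lowest p.

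Among kinases and phosphatases 5 of 14 were lower and 2 higher with the standard diet, together close to the 47.0% of all accessions called. Ptpn5, which encodes the striatum-enriched phosphatase STEP, was 3.1-fold higher in accumbens (log2 fold change 1.63, SE 0.15, adjusted p = 3.74e-06 in edgeR), while Camk2a, the alpha subunit of CaMKII, was at -1.15 (SE 0.16, adjusted p = 9.46e-05). In the low-iron groups 7 were lower and 2 higher, with Ptpn5 at 1.67 and Camk2g at -1.14.

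Genes of glutamate and co-agonist supply had 4 of 12 higher and 1 lower in accumbens with the standard diet. Together these were not above the 47.0% of all accessions called. The glycine transporter gene Slc6a9 was at 1.37 (SE 0.23, adjusted p = 0.000805 in edgeR), and Slc7a10, which carries D-serine and glycine, at 0.61 (SE 0.09). In the low-iron groups 3 were higher and 2 lower, and the same 2 genes had the lowest p, at 1.59 and 0.65. Trafficking and auxiliary genes had 4 of 10 higher and 3 lower with the standard diet. Those with the lowest p were Neto2 (0.73) and the adaptor gene Apba1 (-0.95). With the low-iron diet 4 were higher and 4 lower.

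**Figure D5:**
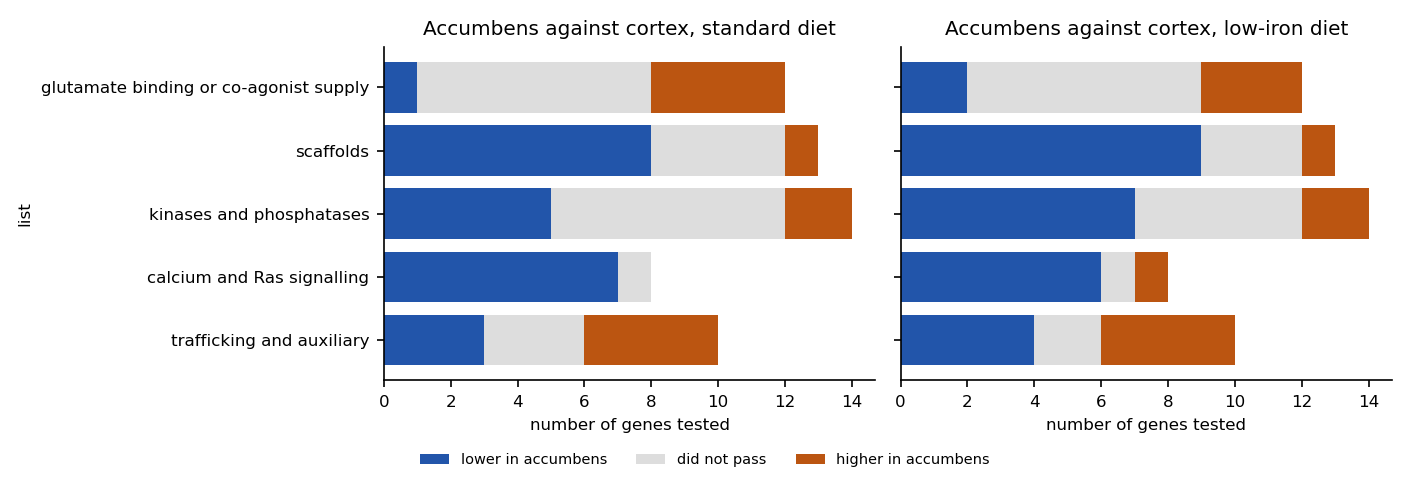
Number of tested genes (horizontal axis) of each of the 5 pathway lists that were lower in accumbens, did not pass, or were higher in accumbens with edgeR, under each diet. Scaffold and signalling lists are mostly lower in accumbens, with 8 of 13 and 7 of 8 under the standard diet. Over all accessions 24.0% were lower there.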

How the data were processed

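Read counts per RefSeq accession were deposited by the authors for each library. Build rn6 and the tools STAR, HTSeq, Trimmomatic 0.36.3, DESeq and DESeq2 are listed without roles, per the submitters' processing notes. Per the labels' protocols, 75 bp single reads came from poly(A) RNA. The unstranded column was used for 18288 accessions. Its counts equalled those in the authors' deposited tables for all 17026 accessions there; 0 count columns lacked a sample. Rows naming no gene, among them reads outside features (35.3 to 44.2%), stayed out of library sizes. The authors' deposited log2 fold changes, their mean normalized count (signal, not used), test statistics (score, not used) and p-values are named where quoted. Symbols came from RefSeq (GRCr8, 17353 accessions) and the deposited tables (859). 

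Tests used edgeR 4.0.16 in R 4.3.3 (quasi-likelihood F test, TMM, robust dispersions, filterByExpr with minimum count 10), with Benjamini-Hochberg adjustment over all accessions tested and a threshold of 0.05. Each SE was taken as log2 fold change over the root of its F statistic. The model was tested on simulated data. Ratios used 0.5 added to each count. DESeq2 1.42.0, other scaling, filters, covariates, summed accessions, the replicate block and leaving out libraries were alternatives. Members, lists and tests were chosen with earlier results of these data known. All members were described; from each pathway list at most the 2 genes with the lowest p in a comparison were named, and for each member the 3 most alike with at least 10 CPM (log2 CPM, prior count 2).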

Additional observations from a re-analysis of the deposited data

Results flagged for a closer look

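Among 32 groups of 5 libraries checked for a library far from the others (levels of Grin2a to Grin2d and Grin3b, and the 3 ratios), 2 were flagged, and chance flags about 1 in 20. Both belong to accumbens low-iron replicate 4. Its Grin2d level of 51.3 CPM stood apart from the other 4 low-iron accumbens libraries, which reached at most 28.6 CPM. Its log2 ratio of Grin2d to Grin2b was -0.0994, where the next highest was -1.30.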

How the results depend on the processing

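Grin2a and Grin2b stayed lower in accumbens under every alternative run, and passed in all but 1: with depth as a covariate 1 of 4 members passed under the standard diet, and 3386 and 3957 accessions were called between regions in place of 5462 and 6632. Assigned reads were mostly lower in accumbens than in cortex, so the fit with depth cannot fully separate depth from region. No member passed with diet under any alternative. DESeq2 called 1 accession with diet in accumbens. The replicate block left 0 members called with diet and 2 in each region comparison, with 5188 and 6818 accessions called. Same-numbered libraries, group means removed, had an r of -0.312 to 0.16 between diets and of -0.0441 to 0.136 between regions. By r, the closest accumbens library was the same-numbered one for standard cortex replicates 1, 2 and 3 and low-iron 3 and 5. It was another for standard replicates 4 and 5 and low-iron 1, 2 and 4. Whether same-numbered libraries of the 2 regions come from the same animal cannot be told from these values.

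Several values that had not passed changed sign, and not all of them were near 0. Grin2d with diet in accumbens was 0.0521 and 0.0435 with marker sums as covariates, in place of -0.25. Grin3b there was 0.242 with depth, in place of -0.0116. Grin2c and Grin2d with diet in cortex were 0.00207 and 0.014 in 1 fit of all 20 libraries, in place of -0.014 and -0.00329. With depth, Grin2d between regions was -0.0953 (standard) and 0.0107 (low-iron), in place of 0.23 and -0.0192. With 1 library left out, diet values ran from -0.0783 to 0.11 for Grin3b in accumbens, and in cortex from -0.0618 to 0.03 for Grin2c and from -0.0777 to 0.0537 for Grin2d. Grin2d between regions with the low-iron diet ran from -0.286 to 0.0642. The diet difference ran from -0.133 to 0.0229 for the Grin2d to Grin2b ratio in cortex and from -0.223 to 0.105 for the Grin2a to Grin2b ratio in accumbens. The cause of these changes was not tested. No ratio passed under any alternative, but with a library left out the smallest possible p is larger still, so those runs had little room to pass. Grin2a rested on as few as 18 reads, which limits its precision.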

Other observations

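In the cortex, Grin3b was highest in standard replicate 4, at 15.8 CPM against 6.98 to 11.9 CPM in the other 4 standard libraries. That library departed most in markers of meninges and fibroblasts, with a sum of 1103 CPM against 107 to 208 CPM and Col3a1 at 470 CPM against a group median of 61.9 CPM. It also had the lowest sum of cortical glutamatergic markers, 1880 CPM. Of the list of GABA interneuron genes, Gad1 (936 CPM, group median 322 CPM) and Gad2 (139 CPM, median 96.4 CPM) were the highest of the standard cortex libraries there. Pvalb (32.2 CPM), Sst (93 CPM), Vip (51 CPM), Lhx6 (16.8 CPM) and Kcnc2 (38.6 CPM) were the lowest, so the list did not move as a whole. The part of these cell types in the Grin3b level was not tested. In the accumbens, group means removed, Grin3b had a Pearson r of 0.883 (rho 0.867) with the striatal projection neuron sum over 10 libraries, which share their scaling. The 3 genes most like Grin3b over all 20 libraries were Meis2 (r 0.857), Zswim5 (0.855) and Sec14l1 (0.853).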
